A study of Mus musculus with 16 samples.

Results

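Glutathione S-transferases (Gst), UDP-glucuronosyltransferases (Ugt) and sulfotransferases (Sult) were followed across the livers of 16 mice. Members were the genes with a probe set annotated to a single symbol that starts with Gst and a class letter (a, k, m, o, p, t or z), with Ugt1, Ugt2 or Ugt3, or with Sult. Where a gene had several such probe sets, the one with the highest mean over the 16 arrays was used. This gave 45 members of 19938 genes: 19 Gst, 10 Ugt and 16 Sult genes. The livers came from males aged 4 months, 1 Affymetrix Mouse Gene 1.0 ST array per liver and 4 arrays in each of 4 groups. The groups were Mut -/- mutants after a fast of 8 to 12 hours, Mut -/- mutants on a normal diet without fasting, Mut +/- heterozygotes after a fast of 12 hours, and Mut +/- heterozygotes on a normal diet without fasting. Mut, now named Mmut, encodes methylmalonyl-CoA mutase, and its loss causes methylmalonic acidemia. All 4 groups carried the transgene TgINS-MCK-Mut, named for the muscle creatine kinase promoter, so both the mutants and the heterozygotes could make the enzyme in muscle. The heterozygotes kept 1 Mut allele and are not wild type, and the fast was not matched in length between the genotypes.

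The 3 families carry out conjugation, the step by which the liver makes fat-soluble compounds easier to excrete. Gst enzymes attach glutathione to reactive, electron-poor molecules, Ugt enzymes attach a sugar, usually glucuronic acid from UDP-glucuronate, and Sult enzymes attach sulfate from the donor PAPS. Substrates include bilirubin, bile acids, steroid and thyroid hormones, products of lipid peroxidation, drugs and toxins. Several mouse members are known to differ between the sexes or to be induced through the receptors CAR (Nr1i3), PXR (Nr1i2) and AHR or the oxidative stress factor NRF2.

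In the livers of unfasted mutants the glucuronosyltransferases were the family with the most calls. There 7 of 10 were lower than in unfasted heterozygotes, against 3.69% of all genes, and none was higher. In the fasted state 5 of 10 were lower, against 5.01% of all genes. Of these 5, the calls of Ugt2b36 and Ugt3a2 were lost under several alternative settings, and that of Ugt2a3 with just the 8 arrays compared. The unfasted call of Ugt2b36 was lost with just the 8 arrays compared as well. The families differed in brightness, and brighter genes were called more often, so their shares of calls are not like for like. Glutathione S-transferases changed in both directions. Gstm5 was higher and Gstk1 and Gstz1 lower in mutants of either feeding state, and Gstp3 was higher in the unfasted mutants. With just the 8 arrays compared, the unfasted calls of Gstm5, Gstz1 and Gstp3 were lost. Among sulfotransferases Sult2a8 was lower in mutants of both states, Sult5a1 in unfasted mutants, and Sult1b1, Sult1d1 and Sult1e1 in fasted mutants. The unfasted calls of Sult2a8 and Sult5a1 and the fasted call of Sult1b1 were lost under some alternative settings. Sult1e1 was dim, at the 0.7th percentile of all genes. Gsta3 was lower after fasting in both genotypes.

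The promoters of the Ugt2b genes are shown first, because 5 of these 7 genes were lower in unfasted mutants. With predicted genes and microRNAs passed over, as for every run named here, they lie in 1 run of 13 genes on chromosome 5. Its order is Ugt2b34, Ugt2b1, Ugt2b35, Ugt2b36, Ugt2b5, Ugt2b37, Ugt2a3, Ugt2b38, Ugt2a1, Ugt2a2, Sult1b1, Sult1d1 and Sult1e1. The 120 bases before each annotated start are given from RefSeq (GRCm38.p6), 5′ to 3′ on the strand of the gene, with a run of 13 letters in capitals. The run matches GTTANAN followed directly by NTTAAC, where N is any base. These letters resemble the palindromic element bound by HNF1 factors and were chosen after the windows had been read.
Ugt2b34: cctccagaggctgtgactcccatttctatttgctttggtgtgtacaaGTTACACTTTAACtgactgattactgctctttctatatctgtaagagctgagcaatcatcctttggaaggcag
Ugt2b1: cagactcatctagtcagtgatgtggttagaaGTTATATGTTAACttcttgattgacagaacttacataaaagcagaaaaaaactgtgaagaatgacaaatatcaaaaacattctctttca
Ugt2b35: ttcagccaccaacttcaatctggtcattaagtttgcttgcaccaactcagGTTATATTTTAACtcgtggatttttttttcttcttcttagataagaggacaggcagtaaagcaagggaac
Ugt2b36: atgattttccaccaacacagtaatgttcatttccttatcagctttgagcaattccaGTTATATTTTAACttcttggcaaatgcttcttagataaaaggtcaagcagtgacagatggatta
Ugt2b5: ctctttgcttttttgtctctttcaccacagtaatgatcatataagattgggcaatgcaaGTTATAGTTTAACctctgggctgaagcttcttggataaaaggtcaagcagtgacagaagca
Ugt2b37: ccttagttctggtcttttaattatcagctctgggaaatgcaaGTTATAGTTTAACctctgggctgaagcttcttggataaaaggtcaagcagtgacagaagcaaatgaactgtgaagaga
Ugt2b38: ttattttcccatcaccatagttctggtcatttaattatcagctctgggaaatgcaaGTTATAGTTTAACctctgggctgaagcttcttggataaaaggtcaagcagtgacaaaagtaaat
The run begins 89 bases before the start in Ugt2b1 and 61 to 78 bases before it in the other 6 genes. Ugt2b5, Ugt2b37 and Ugt2b38 share the same letters in it, GTTATAGTTTAAC, while Ugt2b35 and Ugt2b36 share GTTATATTTTAAC. Over the 250 bases before the start, the pattern on either strand was found in 28 of 32851 windows, or 0.0852%. It was found in 8 of the 41 members with a window, the 7 Ugt2b genes and Ugt3a1. Since it was written from the Ugt2b windows, its presence in those 7 was fixed in advance. They include Ugt2b34 and Ugt2b35, which were not called in either genotype comparison. The members without a window were Gsta4, Gstt2, Sult4a1 and Ugt3a2. It overlaps neither of the patterns searched below. Identity over the 250 bases was 79.6% to 89.6% for the 3 pairs among Ugt2b5, Ugt2b37 and Ugt2b38 and 51.6% to 64.4% for the 18 other pairs of Ugt2b genes. The windows are located on chromosome 5 of GRCm38.p6: Ugt2b34 at chr5:86906938-86907057 (minus strand), Ugt2b1 at chr5:86926504-86926623 (minus strand), Ugt2b35 at chr5:87000740-87000859 (plus strand), Ugt2b36 at chr5:87092556-87092675 (minus strand), Ugt2b5 at chr5:87140341-87140460 (minus strand), Ugt2b37 at chr5:87254789-87254908 (minus strand), Ugt2b38 at chr5:87424204-87424323 (minus strand).

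Separate patterns were searched in the same 250 bases on both strands. TGACNNNGC, the core of the antioxidant response element bound by NRF2, was found in 3 members, Gsta3, Gstm5 and Gstm7, and in 10.2% of all windows. TTCNNNGAA, the core of STAT binding sites, was found in Gstm6 and Sult3a1, 2 members, and in 7.02% of all windows. The stretches of 50 bases that hold TGACNNNGC in Gsta3 and Gstm5 are shown with the match in capitals, because these genes are called below in opposite directions.
Gsta3: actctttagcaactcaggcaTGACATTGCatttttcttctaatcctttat
Gstm5: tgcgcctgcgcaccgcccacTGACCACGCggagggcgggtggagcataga
The Gsta3 stretch lies at chr1:21240444-21240493, plus strand and the Gstm5 stretch at chr3:107895792-107895841, plus strand. A match to letters does not show that a factor binds there.

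Facts of the whole set bear on these comparisons. Mmut differed by -1.78 ± 0.11 (adjusted p = 7.5e-07) in unfasted mutants against unfasted heterozygotes and by -1.80 ± 0.11 (adjusted p = 3.6e-07) in fasted mutants against fasted heterozygotes. These are log2 differences ± standard error from limma, the form used throughout, and the genotypes did not overlap on any array. One unfasted mutant array, replicate 1, carried pancreatic acinar transcripts. The linear values of 7 measured acinar markers, summed and then taken to log2, came to 14.24 on it. The unfasted mutant arrays spanned 9.82 to 14.24 for that sum, fasted mutants 9.70 to 9.76, fasted heterozygotes 9.75 to 9.94 and unfasted heterozygotes 9.78 to 9.86. Sums of 7 hepatocyte markers, made in the same way, lay at 15.825 to 15.857 in fasted mutants and 15.666 to 15.872 in unfasted mutants. They lay at 15.939 to 16.003 in fasted heterozygotes and 15.831 to 15.986 in unfasted heterozygotes. In mutants of each state 1 of the 7 was lower, where 3.69% of all genes were lower unfasted and 5.01% fasted. These are bulk samples, so fewer cells of a type and less RNA per cell cannot be told apart.

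In the unfasted state 13 of the 45 members passed the test in mutants against heterozygotes (limma over all genes, Benjamini-Hochberg adjusted p under 0.05), 2 higher and 11 lower. The background was 7.94% of all genes, with 4.25% higher and 3.69% lower. In the fasted state 16 members passed, 3 higher and 13 lower, against a background of 13.6%, with 8.62% higher and 5.01% lower. Of the members 31 had a mean above the median brightness of 7.67, and brighter genes were called more often. Among genes above that median, fitted alone, 15.8% were called unfasted, with 13 members, and 22.5% were called fasted, with 16 members. By mean brightness Ugt2b37 stood at percentile 47.2 of all genes and the other Ugt genes at 93.2 to 99.5. The Gst genes ran from percentile 22.7 to 99.4 and the Sult genes from 0.4 to 95.7. The families were not compared at equal brightness. Gstm5 was the 1 member called higher in both states, where 2.66% of all genes were, and 7 members were called lower in both, where 1.49% of all genes were. Groups did not overlap for 3 members higher and 13 lower in the unfasted state, where 6.16% and 5.83% of all genes were so placed, and for 2 higher and 12 lower in the fasted state, where 12.8% and 11.0% were. The 7 members lower in both states were Gstk1, Gstz1, Sult2a8, Ugt2a3, Ugt2b1, Ugt2b36 and Ugt3a1. Without unfasted mutant replicate 1, the array with acinar transcripts, 13 members passed unfasted and 16 fasted, while the share of all genes was 8.67% unfasted and 15.9% fasted. Fitted on just the 8 arrays compared, the unfasted calls of Gstm5, Gstp3, Gstz1, Sult5a1 and Ugt2b36 and the fasted calls of Gstm3, Ugt2a3, Ugt2b36 and Ugt3a2 were lost.

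**Figure D1:**
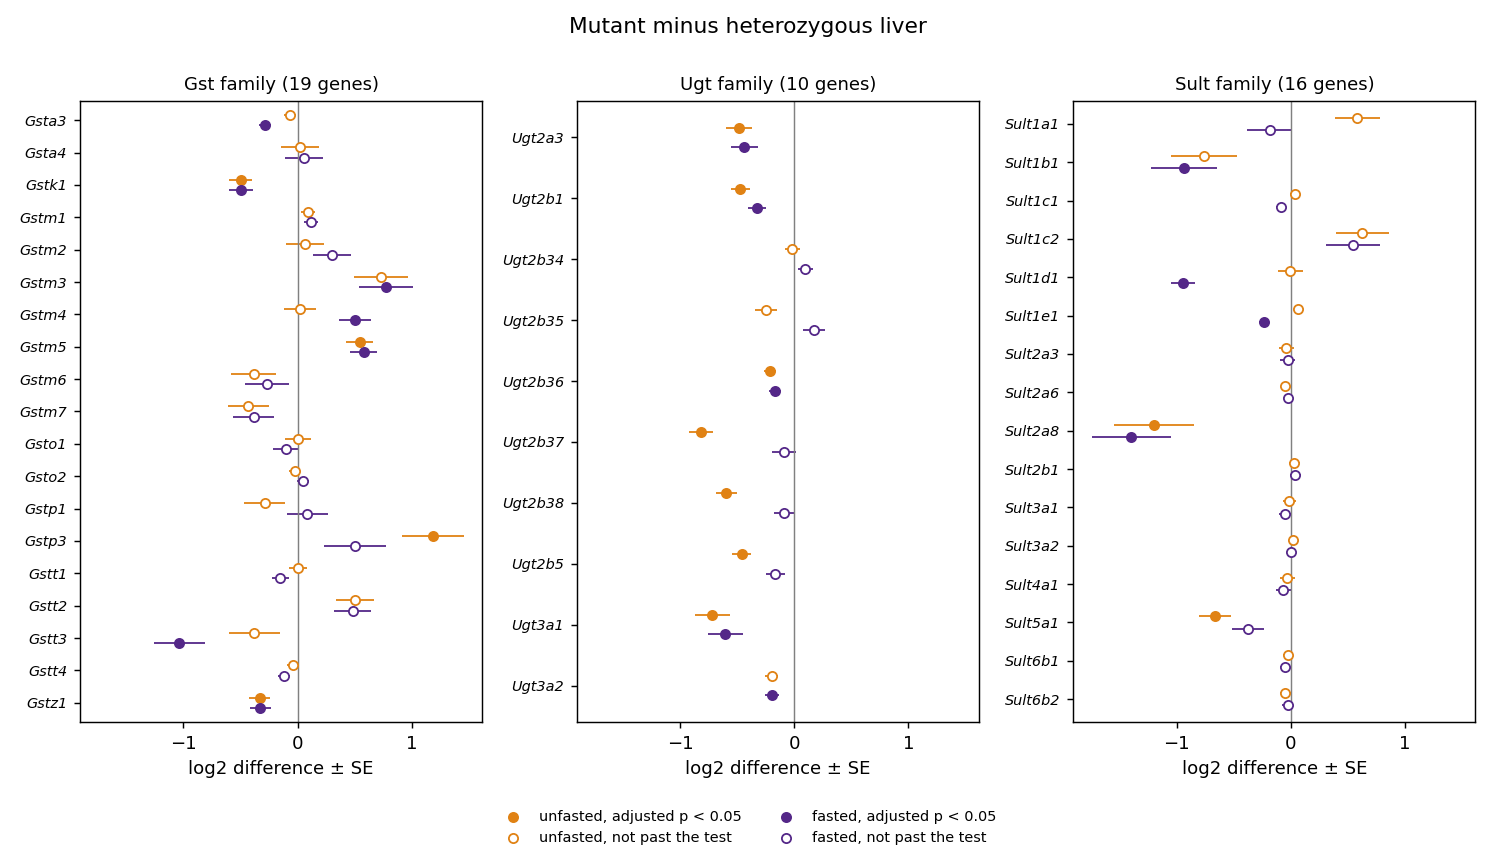
Differences between mutant and heterozygous livers for the 45 members, by family, on the log2 scale with standard errors (4 arrays per group). Filled points passed the test over all genes; all 10 Ugt points of the unfasted state lie below 0.

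The glucuronosyltransferase family had differences below 0 for all 10 members in unfasted mutants, with a median of -0.466 against 0.005 over all genes. In the fasted state 8 of 10 were below 0, with a median of -0.165 against -0.022 over all genes. Enzymes of the Ugt2b class attach glucuronic acid to steroids, bile acids and many drugs. Ugt2b37 read 7.29, 7.19, 7.37 and 7.18 in unfasted mutants, against 8.09, 8.12, 7.79 and 8.32 in unfasted heterozygotes. The unfasted heterozygous arrays were all higher, and the fitted difference was -0.82 ± 0.10 (adjusted p = 3.9e-04). After a fast it read 7.37, 7.20, 7.39 and 7.37 in mutants, against 7.17, 7.37, 7.62 and 7.54 in heterozygotes. There the groups overlapped, at -0.09 ± 0.10 (adjusted p = 0.57).

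Ugt2b38 read 10.97, 10.84, 10.75 and 10.79 in unfasted mutants, against 11.25, 11.49, 11.40 and 11.58 in unfasted heterozygotes. Every mutant array lay below every heterozygous one, and the difference was -0.59 ± 0.09 (adjusted p = 0.0016). In fasted livers it read 11.07, 10.97, 10.94 and 10.93 in mutants, against 10.78, 11.08, 11.25 and 11.15 in heterozygotes, with overlap (difference -0.09 ± 0.09, adjusted p = 0.55). Ugt2b5 showed a like pattern of levels, with 11.98, 11.85, 11.87 and 11.74 in unfasted mutants, against 12.14, 12.46, 12.29 and 12.39 in unfasted heterozygotes. These groups did not overlap, and it fell by 0.46 ± 0.08 (adjusted p = 0.0037). Fasted, Ugt2b5 read 11.94, 11.88, 11.84 and 11.77 in mutants, against 11.81, 12.03, 12.17 and 12.08 in heterozygotes, which overlapped at -0.17 ± 0.08 (adjusted p = 0.19). No call among these 3 genes in the unfasted state was lost when any 1 array was left out.

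Ugt2b1 was called in both feeding states. It read 12.21, 12.29, 12.35 and 12.50 in unfasted mutants, against 12.67, 12.76, 12.89 and 12.91 in unfasted heterozygotes. In the fasted state it read 12.20, 12.18, 12.26 and 12.14 in mutants, against 12.31, 12.51, 12.63 and 12.65 in heterozygotes. Both pairs of groups were apart, with differences of -0.47 ± 0.08 (adjusted p = 0.0028) unfasted and -0.33 ± 0.08 (adjusted p = 0.014) fasted. Ugt2b36 differed by a smaller amount. Its values were 12.81, 12.77, 12.63 and 12.66 in unfasted mutants, against 12.84, 12.96, 12.96 and 12.93 in unfasted heterozygotes, and 12.62, 12.61, 12.59 and 12.53 in fasted mutants, against 12.65, 12.75, 12.83 and 12.77 in fasted heterozygotes. The groups were apart in both states, with -0.21 ± 0.05 (adjusted p = 0.023) unfasted and -0.16 ± 0.05 (adjusted p = 0.049) fasted. The calls of Ugt2b36 were lost without any 1 of 5 arrays unfasted (adjusted p up to 0.078) and without any 1 of 11 fasted (up to 0.13). The fasted call of Ugt2b36 was also lost under 6 alternative settings (adjusted p up to 0.12): the replicate block, just the 8 arrays compared, arrays centred on their medians, a second quantile normalization, robust moderation and the dimmest probe set of each gene. Ugt2b34 and Ugt2b35 did not pass in either genotype comparison, with differences of -0.02 and -0.25 unfasted and of 0.10 and 0.18 fasted.

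Ugt2a3, whose human counterpart conjugates bile acids, read 11.79, 11.86, 11.70 and 11.82 in unfasted mutants, against 12.20, 12.17, 12.40 and 12.36 in unfasted heterozygotes. Here the groups were apart (-0.49 ± 0.11, adjusted p = 0.017). Fasted mutants had 11.26, 11.49, 11.86 and 11.79, against 11.81, 12.02, 12.20 and 12.12 in fasted heterozygotes. The fasted groups overlapped, since heterozygous replicate 1 lay within the mutant range (-0.44 ± 0.11, adjusted p = 0.020). The unfasted call was lost without heterozygous unfasted replicate 3 or 4 (adjusted p up to 0.063), and the fasted one without any 1 of 4 arrays (up to 0.066).

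Ugt3a1, which in humans transfers N-acetylglucosamine in place of glucuronic acid, read 11.49, 11.52, 11.05 and 11.61 in unfasted mutants, against 12.03, 12.17, 12.28 and 12.07 in unfasted heterozygotes. Fasted mutants had 11.10, 11.57, 12.04 and 11.71, against 12.18, 12.21, 12.12 and 12.34 in fasted heterozygotes. All mutant arrays were lower in each state, and the fasted mutants spread widely between replicate 1 at 11.10 and replicate 3 at 12.04. The differences were -0.72 ± 0.15 (adjusted p = 0.011) unfasted and -0.60 ± 0.15 (adjusted p = 0.018) fasted, and leaving out heterozygous fasted replicate 4 ended the fasted call (adjusted p = 0.054). Ugt3a2, its neighbour on chromosome 15, had values of 12.05, 12.12, 12.19 and 12.08 in fasted mutants, against 12.19, 12.28, 12.33 and 12.42 in fasted heterozygotes. With overlapping groups it was -0.20 ± 0.06 (adjusted p = 0.038), a call lost without any 1 of 6 arrays (up to 0.12), and also with the replicate block, with just the 8 arrays compared and with arrays centred on their medians (up to 0.068). In the unfasted state it read 12.31, 12.16, 12.10 and 12.21 in mutants, against 12.33, 12.41, 12.45 and 12.39 in heterozygotes. Those groups were apart and the test was just missed (-0.20 ± 0.06, adjusted p = 0.050).

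**Figure D2:**
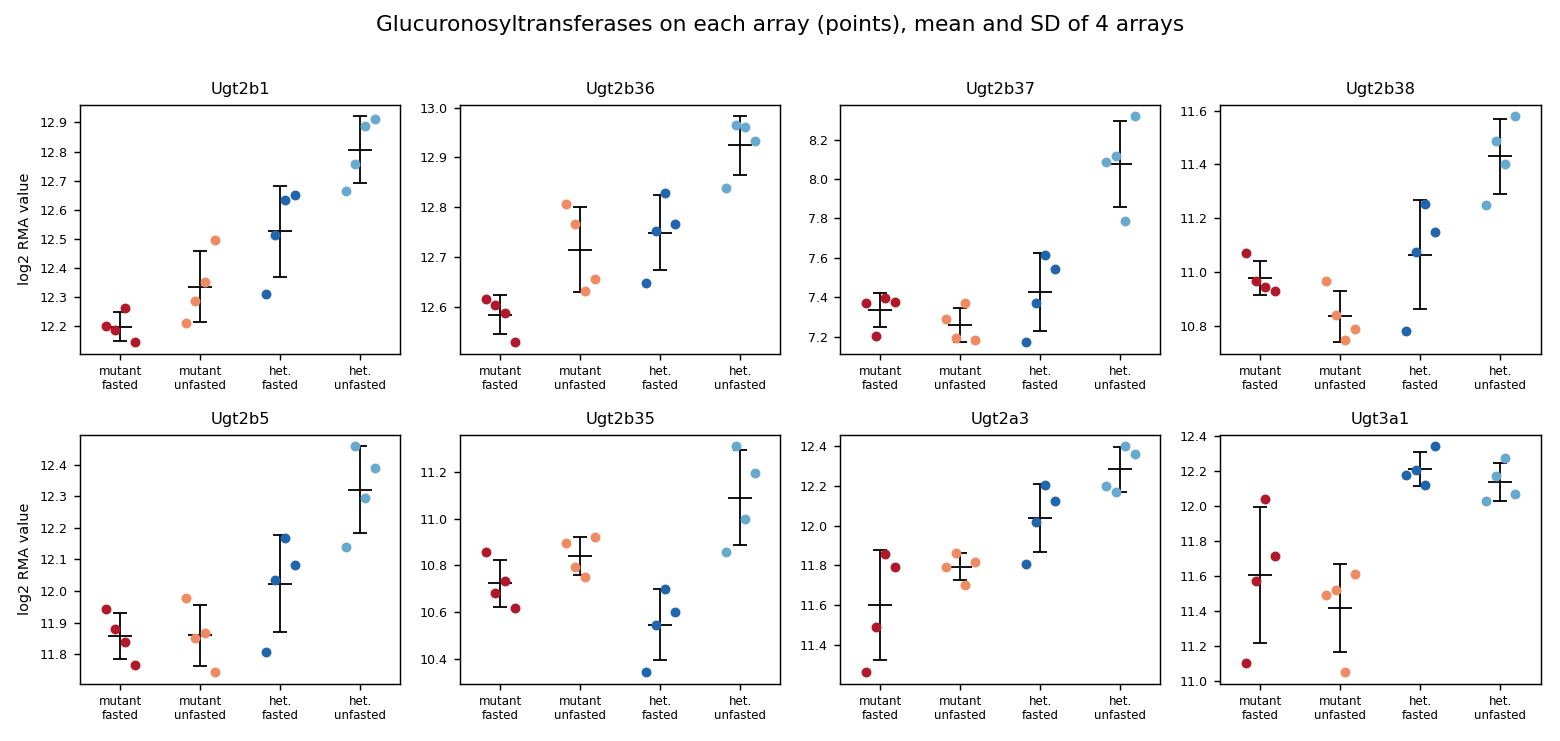
Log2 RMA values of 8 glucuronosyltransferases on each array in fasted and unfasted mutants and heterozygotes, with the mean and SD of 4 arrays. For 6 of the 8 genes plotted (Ugt2b1, Ugt2b36, Ugt2b37, Ugt2b38, Ugt2b5 and Ugt2a3) the unfasted heterozygotes lie above both mutant groups without overlap.

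The Ugt1a genes, which include the bilirubin-conjugating enzyme, fell outside the members because the probe set that reads them is annotated to 8 symbols. As a description, that probe set averaged 11.79 ± 0.11 in fasted mutants, 11.90 ± 0.04 in unfasted mutants, 11.80 ± 0.05 in fasted heterozygotes and 11.88 ± 0.06 in unfasted heterozygotes (SD, n = 4 each). All of these groups overlapped. The probe sets shared by Ugt3a1 and Ugt3a2, 2 in number, differed by -0.39 and -0.40 in unfasted mutants against unfasted heterozygotes, with groups apart.

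Glutathione S-transferases were called in both directions: 2 higher and 2 lower of 19 in unfasted mutants, and 3 higher and 4 lower in fasted mutants. The shares of all genes were 4.25% higher and 3.69% lower unfasted, and 8.62% and 5.01% fasted. Family medians lay at 0.003 unfasted and 0.047 fasted. The mu class holds 7 members in 1 run on chromosome 3, and they conjugate epoxides and other electrophiles. Gstm5 was higher in mutants of both states. It read 8.33, 8.10, 8.37 and 8.53 in unfasted mutants, against 7.79, 7.44, 7.87 and 8.05 in unfasted heterozygotes. In fasted livers it read 8.15, 8.16, 8.22 and 8.51 in mutants, against 7.55, 7.66, 7.79 and 7.71 in heterozygotes. The groups were apart in each state, with 0.54 ± 0.12 (adjusted p = 0.012) unfasted and 0.58 ± 0.12 (adjusted p = 0.0058) fasted.

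Gstm4 was called in the fasted state only among the genotype comparisons, and the difference between the states did not pass (0.49 ± 0.20, adjusted p = 0.42). Fasted mutants had 11.83, 11.75, 11.88 and 11.84, against 11.21, 11.38, 11.23 and 11.48 in fasted heterozygotes. Unfasted mutants had 11.63, 11.21, 11.94 and 11.97, against 11.38, 11.86, 11.69 and 11.74 in unfasted heterozygotes. The fasted groups were apart at 0.51 ± 0.14 (adjusted p = 0.025), a call lost without any 1 of 4 arrays (up to 0.069), while the unfasted groups overlapped at 0.02 ± 0.14 (adjusted p = 0.96).

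Gstm3 was read by 2 probe sets that gave different sizes. The brighter one, which represents the gene here, read 11.99, 11.64, 12.34 and 12.50 in unfasted mutants, against 11.28, 11.34, 11.29 and 11.63 in unfasted heterozygotes. It read 12.13, 11.74, 10.95 and 12.38 in fasted mutants, against 10.91, 11.13, 11.01 and 11.06 in fasted heterozygotes. Mutant fasted replicate 3 lay inside the heterozygous range, and the others lay above it. This probe set gave 0.73 ± 0.24 (adjusted p = 0.069) unfasted and 0.77 ± 0.24 (adjusted p = 0.041) fasted. The fasted call was lost without any 1 of 9 arrays (up to 0.11), and with just the 8 arrays compared and with robust moderation (up to 0.062). The dimmer probe set read 11.88, 11.45, 12.31 and 12.49 in unfasted mutants, against 9.88 to 10.46 in unfasted heterozygotes. It read 12.15, 11.70, 9.70 and 12.47 in fasted mutants, against 9.22, 9.18, 8.26 and 9.12 in fasted heterozygotes. All mutant arrays lay above the heterozygous ones in each state. With this probe set in its place the difference was 1.87 ± 0.44 unfasted (3.66-fold, adjusted p = 0.018) and 2.56 ± 0.44 fasted (5.90-fold, adjusted p = 0.0022). RNA of close relatives can bind the probes of these families, and how much each probe set reads of its neighbours was not tested.

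**Figure D3:**
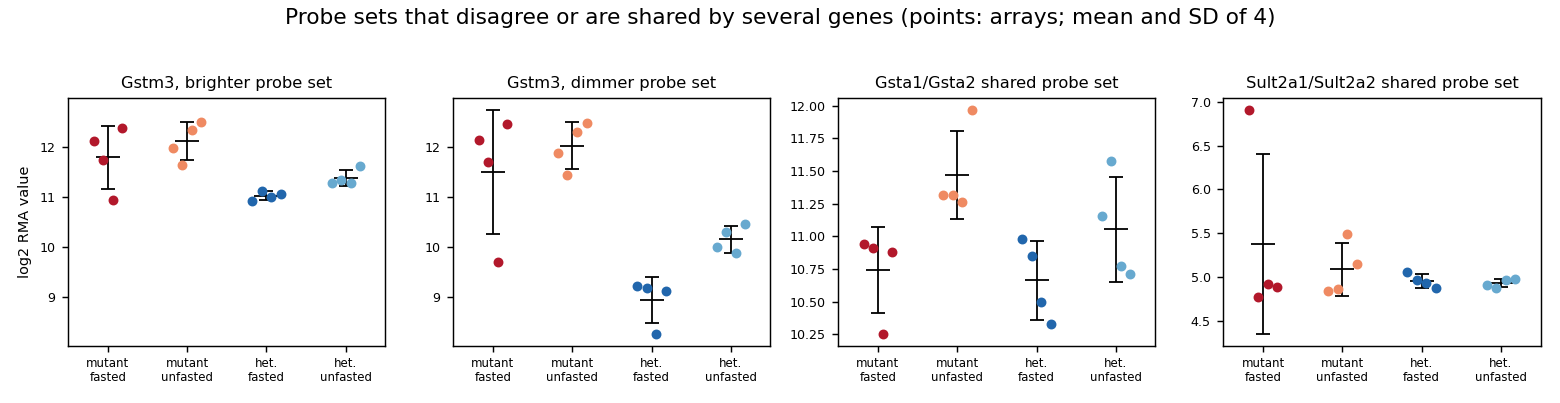
Log2 RMA values on each array, by group, with the mean and SD. The panels show the 2 Gstm3 probe sets, a probe set shared by Gsta1, Gsta2 and predicted genes, and another shared by Sult2a1 and Sult2a2. On the dimmer Gstm3 probe set the unfasted mutants lie between 11.45 and 12.49 and the unfasted heterozygotes between 9.88 and 10.46.

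The remaining mu members, Gstm1, Gstm2, Gstm6 and Gstm7, did not pass in any comparison. Their differences in mutants ran from -0.43 for Gstm7 to 0.09 for Gstm1 in the unfasted state and from -0.38 for Gstm7 to 0.30 for Gstm2 in the fasted state.

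Gstp3, a pi-class enzyme, had the largest rise of the members in the unfasted state when Gstm3 is read by its brighter probe set, and a smaller one than the dimmer Gstm3 probe set. It read 9.582, 9.346, 9.995 and 10.601 in unfasted mutants, against 9.057, 9.177, 8.312 and 8.233 in unfasted heterozygotes. These groups were apart at 1.19 ± 0.27 (adjusted p = 0.015), a 2.28-fold rise, and the call was lost without heterozygous unfasted replicate 3 or 4 (adjusted p up to 0.059). After a fast it read 8.646, 8.818, 8.412 and 8.980 in mutants, against 8.606, 8.194, 7.676 and 8.381 in heterozygotes, which overlapped (0.50 ± 0.27, adjusted p = 0.23). Gstp1, which is abundant in male mouse liver, lies in the same run on chromosome 19, with Gstp2 between it and Gstp3. It ran from 12.26 to 12.73 in unfasted mutants, against 12.70 to 13.07 in unfasted heterozygotes, and was not called (-0.29 ± 0.18, adjusted p = 0.38).

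Gstk1, the kappa-class enzyme of mitochondria and peroxisomes, was lower in mutants. It read 12.03, 11.95, 11.89 and 12.13 in unfasted mutants, against 12.56, 12.24, 12.62 and 12.56 in unfasted heterozygotes. In fasted livers it read 11.81, 11.93, 12.35 and 12.11 in mutants, against 12.58, 12.56, 12.46 and 12.58 in heterozygotes. All mutant arrays were below the heterozygous ones in each state, with -0.50 ± 0.10 (adjusted p = 0.0095) unfasted and -0.49 ± 0.10 (adjusted p = 0.0065) fasted, and neither call was lost when any 1 array was left out. Gstz1, the zeta-class enzyme that isomerizes maleylacetoacetate in tyrosine breakdown, was also lower in both. It read 11.69, 11.66, 11.40 and 11.63 in unfasted mutants, against 11.89, 11.78, 12.02 and 12.00 in unfasted heterozygotes. Fasted mutants had 11.39, 11.46, 11.67 and 11.85, against 11.91, 11.90, 11.91 and 11.95 in fasted heterozygotes. The groups were apart, with -0.33 ± 0.09 (adjusted p = 0.039) unfasted and -0.33 ± 0.09 (adjusted p = 0.030) fasted, but these calls were lost without any 1 of 9 arrays (up to 0.13) and 6 arrays (up to 0.097).

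Theta-class members lie side by side on chromosome 10, with predicted genes and microRNAs passed over, in the order Gstt3, Gstt1, Gstt4 and Gstt2. Gstt3 read 8.72, 8.58, 9.40 and 9.12 in fasted mutants, against 10.17, 10.04, 9.77 and 9.98 in fasted heterozygotes. The fasted groups were apart at -1.04 ± 0.22 (adjusted p = 0.0073). Unfasted mutants had 8.98, 9.13, 9.38 and 10.20, against 10.10, 9.76, 9.65 and 9.69 in unfasted heterozygotes, where mutant replicate 4 stood above every heterozygous array (-0.38 ± 0.22, adjusted p = 0.36). Gstt2 differed the other way, at 0.50 ± 0.16 (adjusted p = 0.072) unfasted and 0.48 ± 0.16 (adjusted p = 0.062) fasted, and was not called. Gsto1 and Gsto2, of the omega class that reduces dehydroascorbate, were within 0.10 of 0 in both states.

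Gsta3, an alpha-class enzyme that in mice conjugates the aflatoxin epoxide, was lower in fasted mutants. It read 12.15, 12.15, 12.26 and 12.33 in fasted mutants, against 12.46, 12.57, 12.42 and 12.58 in fasted heterozygotes. In the unfasted state it read 12.74, 12.72, 12.68 and 12.72 in mutants, against 12.84, 12.74, 12.76 and 12.78 in heterozygotes. The fasted groups were apart at -0.29 ± 0.05 (adjusted p = 0.0027). In the unfasted state the highest mutant array equalled the lowest heterozygous one at 2 decimals, and the gene was not called (-0.07 ± 0.05, adjusted p = 0.51). Gsta4, which clears the lipid peroxidation product 4-hydroxynonenal, was at 0.02 unfasted and 0.06 fasted.

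Sulfotransferases showed 2 of 16 lower in unfasted mutants and 4 lower in fasted mutants, with none higher, and medians of -0.019 and -0.059. Over all genes 4.25% were called higher and 3.69% lower unfasted, and 8.62% and 5.01% fasted. Sult2a8, a mouse enzyme that sulfates bile acids, had the largest fall of the members in both states. It read 10.68, 10.67, 10.42 and 11.44 in unfasted mutants, against 11.88, 11.90, 12.08 and 12.16 in unfasted heterozygotes. Fasted mutants had 9.28, 9.93, 11.55 and 10.88, against 11.55, 11.68, 12.05 and 11.96 in fasted heterozygotes. Mutant fasted replicate 3 equalled the lowest heterozygous array at 2 decimals, and mutant fasted replicates 1 and 2 were the lowest of all arrays. The differences were -1.20 ± 0.35 (adjusted p = 0.047) unfasted and -1.40 ± 0.35 (adjusted p = 0.016) fasted, which in the fasted state is a 2.63-fold fall. The unfasted call was lost without any 1 of 12 arrays (up to 0.12), and the fasted call without mutant fasted replicate 2 (0.058). With a second quantile normalization, with no intensity trend and with robust moderation the unfasted call was lost as well (adjusted p up to 0.074).

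Sult5a1, an enzyme with little known of its substrates, read 7.11, 7.07, 7.12 and 7.23 in unfasted mutants, against 7.88, 7.25, 7.82 and 8.23 in unfasted heterozygotes. The groups were apart at -0.67 ± 0.14 (adjusted p = 0.011). After fasting it read 7.15, 6.88, 7.07 and 7.19 in mutants, against 7.45, 7.47, 7.58 and 7.28 in heterozygotes, again apart but not called (-0.38 ± 0.14, adjusted p = 0.090).

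At the end of the chromosome 5 run, Sult1b1, Sult1d1 and Sult1e1 were each lower in fasted mutants. Sult1d1, which in mice sulfates dopamine and other amines, read 10.67, 10.53, 10.64 and 10.96 in fasted mutants, against 11.56, 11.57, 11.88 and 11.57 in fasted heterozygotes. The fasted groups were apart at -0.94 ± 0.11 (adjusted p = 1.2e-04). In the unfasted state it read 11.26, 11.04, 10.95 and 11.33 in mutants, against 11.13, 10.98, 11.29 and 11.19 in heterozygotes, which overlapped at -0.01 ± 0.11 (adjusted p = 0.99).

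Sult1b1, which sulfates thyroid hormones and phenols, read 7.26, 7.73, 8.28 and 8.76 in fasted mutants, against 8.64, 8.78, 9.16 and 9.20 in fasted heterozygotes. With overlapping groups it was -0.93 ± 0.29 (adjusted p = 0.044). The call was lost without any 1 of 8 arrays (up to 0.13) and with robust moderation (0.063). Unfasted mutants had 8.39, 8.27, 7.96 and 8.22, against 8.91, 8.18, 9.45 and 9.34 in unfasted heterozygotes (-0.76 ± 0.29, adjusted p = 0.13). Sult1e1, the estrogen sulfotransferase, was dim on every array, with a mean of 4.46 at the 0.7th percentile of all genes, and nothing in the table shows that its signal stood above background. It read 4.36, 4.32, 4.42 and 4.42 in fasted mutants, against 4.68, 4.51, 4.67 and 4.59 in fasted heterozygotes. These narrow groups were apart at -0.24 ± 0.04 (adjusted p = 0.0022). Unfasted mutants had 4.48, 4.44, 4.37 and 4.55, against 4.36, 4.40, 4.40 and 4.42 in unfasted heterozygotes, with overlap (0.07 ± 0.04, adjusted p = 0.40).

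Other sulfotransferases did not pass between the genotypes. Sult1a1, which sulfates phenols, was at 0.58 ± 0.20 (adjusted p = 0.081) unfasted and -0.19 ± 0.20 (adjusted p = 0.54) fasted. Sult1c2 had differences of 0.63 ± 0.23 (adjusted p = 0.12) unfasted and 0.55 ± 0.23 (adjusted p = 0.13) fasted. The others, Sult1c1, Sult2a3, Sult2a6, Sult2b1, Sult3a1, Sult3a2, Sult4a1, Sult6b1 and Sult6b2, lay within 0.10 of 0 in both states. Sult2b1 and Sult4a1 stood at percentiles 27.4 and 24.5 of mean brightness, and the rest of these were dim, at 0.4 to 9.7. Whether the dim ones stood above background is not shown, so their small differences do not show unchanged expression. The medians of the Sult family include them.

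**Figure D4:**
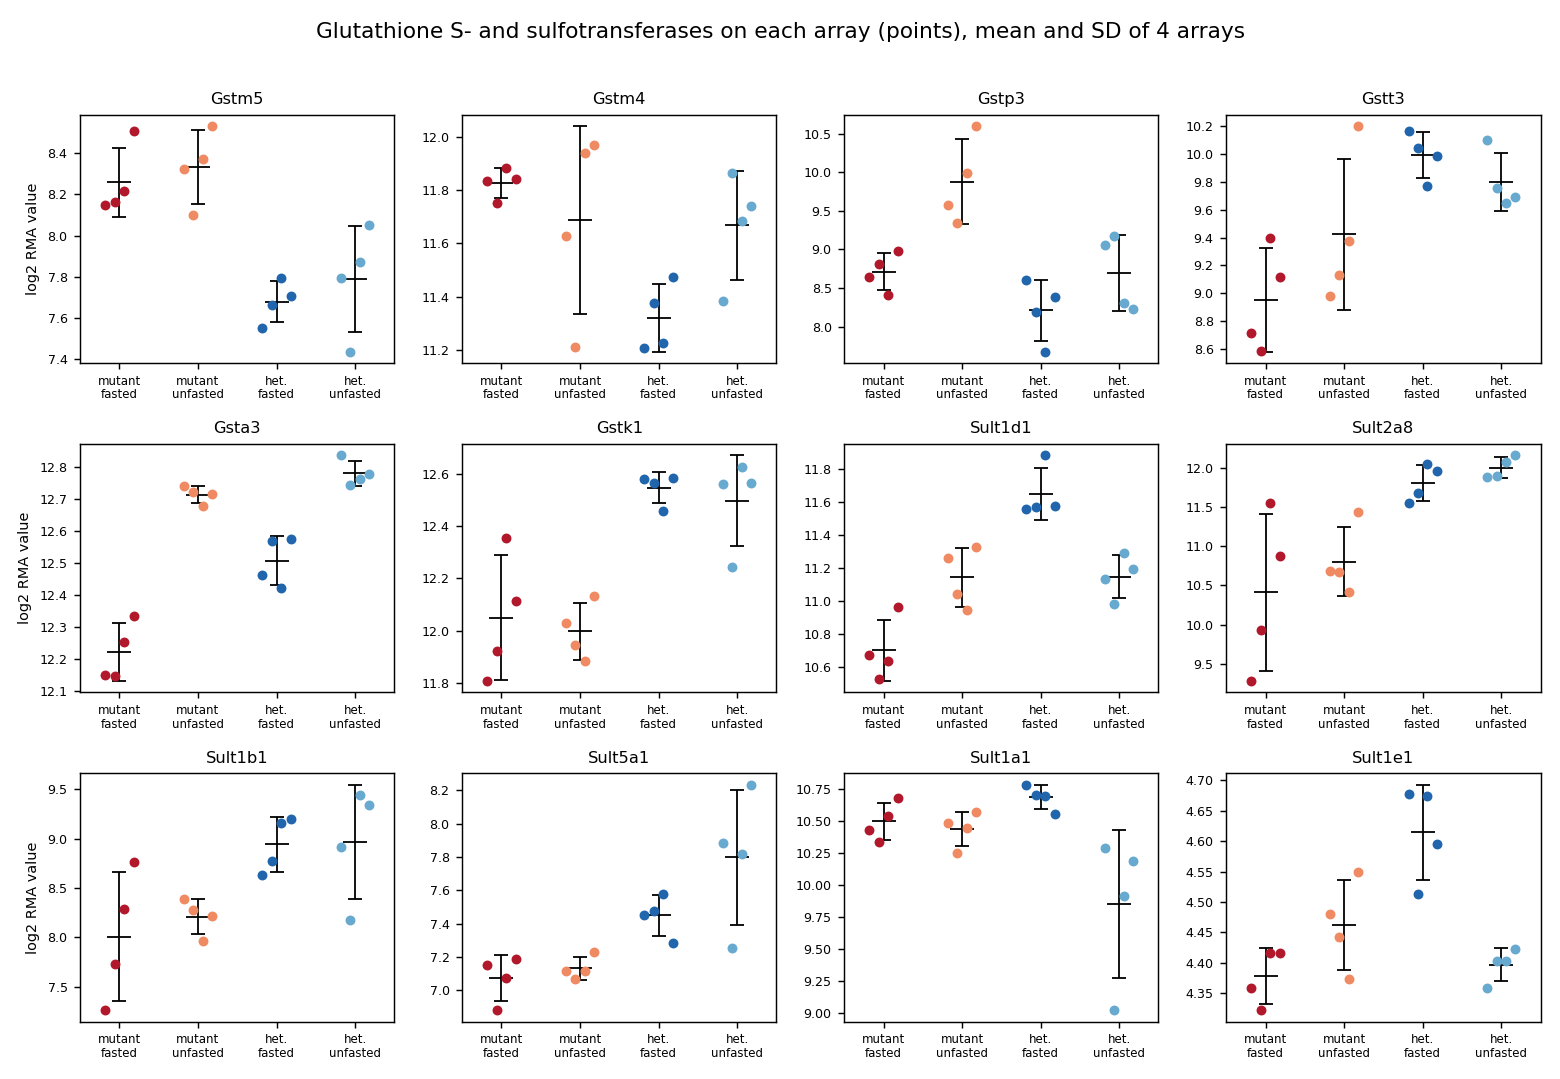
Log2 RMA values of glutathione S-transferases and sulfotransferases on each array in fasted and unfasted mutants and heterozygotes, with the mean and SD of 4 arrays. Gstk1 and Sult2a8 are lower in mutants of both feeding states, and Gstm5 is higher.

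Fasting was compared within each genotype. In mutants 4 of 45 members passed in fasted against unfasted livers, all lower, with a background of 3.35% (2.33% higher and 1.02% lower). In heterozygotes 6 passed, 3 higher and 3 lower, with a background of 1.57% (0.732% higher and 0.838% lower). Groups did not overlap for 0 members higher and 7 lower in mutants, where 5.49% and 4.54% of all genes were so placed, and for 3 higher and 9 lower in heterozygotes, where 5.35% and 5.11% were. Each genotype comparison shares its groups with the fasting comparisons. Without unfasted mutant replicate 1 5 members passed in mutants, where 9.74% of all genes did, and 5 in heterozygotes, where 1.76% did.

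Gsta3 was the member called in both genotypes in the same direction. Its fasted arrays, given above, lay below the unfasted ones in each genotype. The difference was -0.49 ± 0.05 (adjusted p = 4.0e-04) in mutants and -0.27 ± 0.05 (adjusted p = 0.014) in heterozygotes. Gsta4, the other alpha-class member, was also lower after fasting with groups apart in each genotype, but was not called. It differed by -0.61 ± 0.16 (adjusted p = 0.054) in mutants and -0.64 ± 0.16 (adjusted p = 0.070) in heterozygotes. The 4 probe sets shared by Gsta1, Gsta2 and 2 predicted genes differed by -0.70 to -0.73 in fasted mutants against unfasted mutants, with groups apart, and were not tested.

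In mutants the other calls were Gstp3, Gstt1 and Sult1d1. Gstp3 fell by 1.17 ± 0.27 (adjusted p = 0.029) in fasted mutants, whose arrays all lay below those of unfasted mutants. The call was lost without any 1 of 5 arrays (up to 0.076), and with just the 8 arrays compared and with array weights (up to 0.095). Gstt1, a theta-class enzyme that acts on small halogenated compounds, read 11.55, 11.60, 11.73 and 11.72 in fasted mutants, against 11.91, 12.00, 12.07 and 12.11 in unfasted mutants. These groups were apart at -0.37 ± 0.08 (adjusted p = 0.018), and the call was lost without mutant fasted replicate 2 or mutant unfasted replicate 4 (up to 0.062). With just the 8 arrays compared it was lost as well (0.079). In heterozygotes Gstt1 read 11.93, 11.89, 11.59 and 11.79 fasted, against 12.07, 12.12, 12.02 and 11.88 unfasted, with overlap (-0.22 ± 0.08, adjusted p = 0.20).

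Sult1d1 was called in opposite directions by fasting. The difference was -0.44 ± 0.11 (adjusted p = 0.038) in fasted against unfasted mutants, with fasted replicate 4 at 10.96 and unfasted replicate 3 at 10.95. In heterozygotes it was 0.50 ± 0.11 (adjusted p = 0.030), with all fasted arrays above the unfasted ones. Each of these calls was lost without any 1 of 7 arrays (up to 0.12 in mutants and 0.099 in heterozygotes). The call in mutants was also lost with just the 8 arrays compared and with array weights (up to 0.15). The difference between the responses was -0.94 ± 0.15 (adjusted p = 0.11), which did not pass. It passed under 2 alternatives, a second quantile normalization (adjusted p = 0.047) and the fit without mutant fasted replicate 4 (adjusted p = 0.037).

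In heterozygotes Sult1a1 and Sult1e1 were higher and Ugt2b35 and Ugt2b37 lower after fasting. Sult1a1 read 10.78, 10.70, 10.69 and 10.56 in fasted heterozygotes, against 10.29, 9.02, 9.92 and 10.19 in unfasted heterozygotes. The groups were apart and the lowest unfasted array stood well below the others, at 0.83 ± 0.20 (adjusted p = 0.044), a call lost without any 1 of 12 arrays (up to 0.12). Sult1a1 also lost this call with just the 8 arrays compared and with robust moderation (adjusted p up to 0.098). In mutants it read 10.43, 10.34, 10.54 and 10.68 fasted, against 10.49, 10.25, 10.44 and 10.57 unfasted (0.06 ± 0.20, adjusted p = 0.88). Sult1e1 was 0.22 ± 0.04 (adjusted p = 0.014) in fasted heterozygotes, a call lost without heterozygous fasted replicate 1 (0.050), and -0.08 ± 0.04 (adjusted p = 0.24) in fasted mutants.

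Ugt2b35 read 10.344, 10.545, 10.699 and 10.603 in fasted heterozygotes, against 10.856, 11.311, 10.998 and 11.195 in unfasted heterozygotes. These groups were apart at -0.54 ± 0.10 (adjusted p = 0.011). In mutants it read 10.860, 10.681, 10.732 and 10.620 fasted, against 10.896, 10.792, 10.751 and 10.922 unfasted, with overlap (-0.12 ± 0.10, adjusted p = 0.49). Ugt2b37 differed by -0.65 ± 0.10 (adjusted p = 0.0064) in fasted against unfasted heterozygotes, with groups apart, and by 0.08 ± 0.10 (adjusted p = 0.69) in mutants. Over the Ugt family 9 of 10 fasting differences were below 0 in heterozygotes, with a median of -0.266, and 7 of 10 in mutants, with a median of -0.103.

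**Figure D5:**
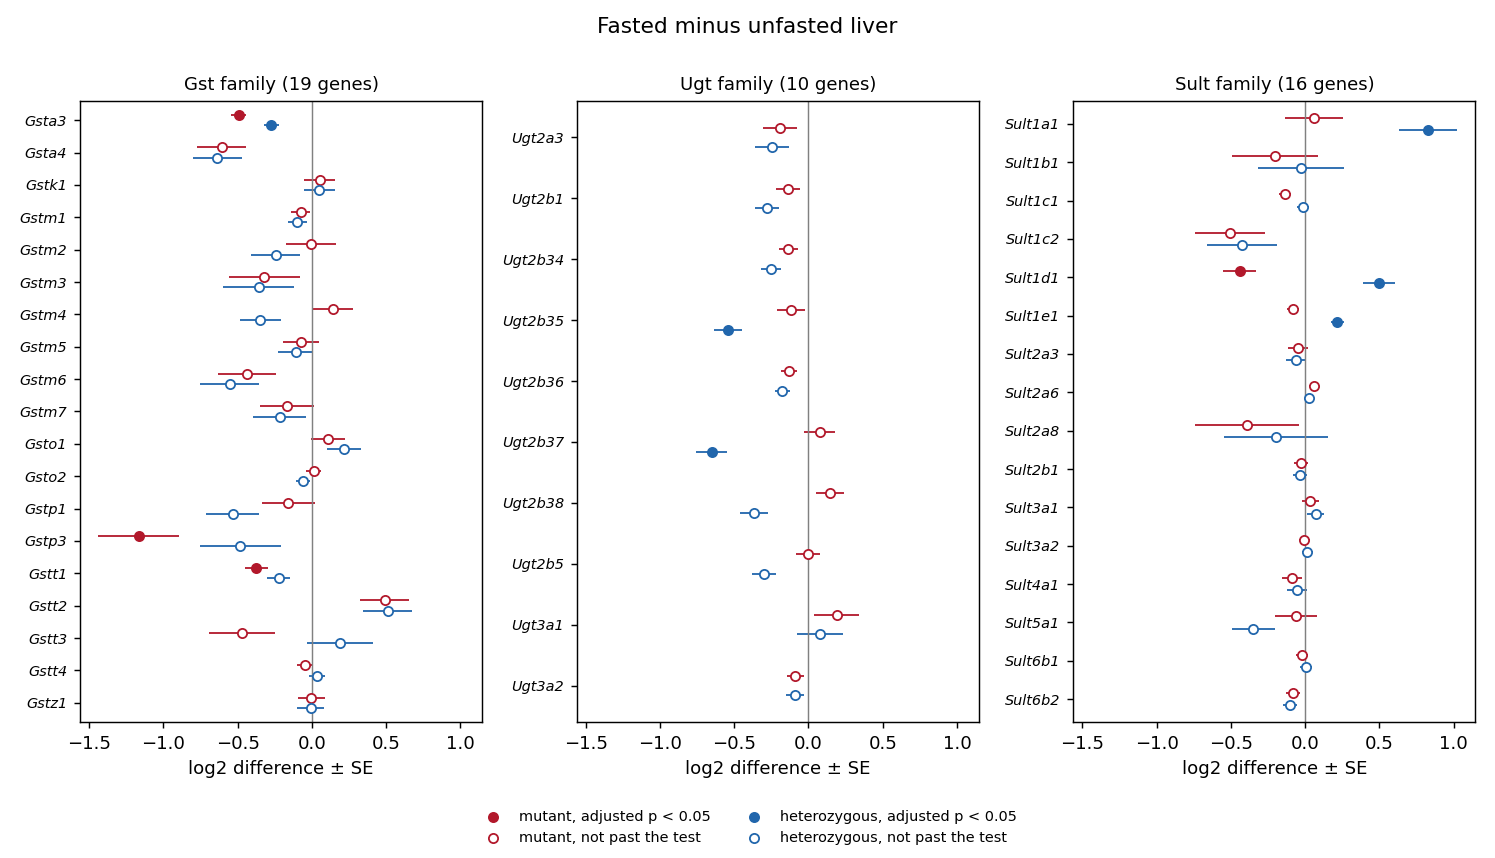
Differences between fasted and unfasted livers for the 45 members in mutants and in heterozygotes, on the log2 scale with standard errors (4 arrays per group). Filled points passed the test over all genes: 4 in mutants, all below 0, and 6 in heterozygotes.

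No member passed the test of the interaction, the difference of the fasting responses between the genotypes (mutant minus heterozygous). Over all genes 2 passed, or 0.010%, both higher, and none lower (0%). At an unadjusted p under 0.05 there were 9 members and 11.0% of all genes. For the Ugt family all 10 interaction differences were above 0, from 0.001 to 0.727, with Ugt2b37 at 0.73 ± 0.15 (adjusted p = 0.25) and Ugt2b38 at 0.51 ± 0.13 (adjusted p = 0.29). Sult1e1 was at -0.30 ± 0.06 (adjusted p = 0.20) and Gsta3 at -0.22 ± 0.07 (adjusted p = 0.38). So the smaller number of Ugt calls in the fasted than in the unfasted genotype comparison is not shown to be a difference between the feeding states.

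Genes that supply, export or regulate conjugation formed a list of 50, of which 45 were measured. In unfasted mutants 7 rose and 5 fell, where 4.25% of all genes were called higher and 3.69% lower. In fasted mutants 8 rose and 3 fell, where 8.62% of all genes were called higher and 5.01% lower. Medians of the list were 0.024 and 0.019, against 0.005 and -0.022 over all genes. Slc7a11, which imports cystine for glutathione, read 10.71, 10.45, 9.11 and 5.79 in unfasted mutants, against 5.49, 5.51, 5.56 and 5.51 in unfasted heterozygotes. It read 10.36, 9.82, 7.21 and 8.91 in fasted mutants, against 5.68, 5.49, 5.62 and 5.51 in fasted heterozygotes. The heterozygotes were dim throughout, and unfasted mutant replicate 4 lay close to them. Slc7a11 differed by 3.50 ± 0.82 (adjusted p = 0.016) unfasted and 3.50 ± 0.82 (adjusted p = 0.011) fasted. The unfasted call was lost without mutant unfasted replicate 2 (0.052) and with just the 8 arrays compared (0.063). Abcc4, which exports conjugates of bile acids and steroids from the hepatocyte to blood, differed by 2.13 ± 0.24 (adjusted p = 1.2e-04) unfasted and 2.24 ± 0.24 (adjusted p = 6.5e-05) fasted. Mgst3, a membrane-bound glutathione transferase of another family, read 9.17, 8.73, 9.65 and 8.69 in unfasted mutants, against 8.14, 8.39, 8.14 and 7.85 in unfasted heterozygotes. In the fasted state it read 9.43, 9.03, 8.82 and 9.39 in mutants, against 8.39, 8.39, 7.86 and 7.88 in heterozygotes. Its groups were apart in both states, with 0.93 ± 0.21 (adjusted p = 0.013) unfasted and 1.04 ± 0.21 (adjusted p = 0.0046) fasted.

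Nqo1, a quinone reductase and a known NRF2 target, rose in fasted mutants by 1.25 ± 0.28 (adjusted p = 0.0092) and was at 0.89 ± 0.28 (adjusted p = 0.067) in unfasted mutants, groups apart in both states. Bcl6, a repressor tied to sex-biased liver genes, fell in fasted mutants at -1.30 ± 0.40 (adjusted p = 0.040). That call was lost without any 1 of 6 arrays (up to 0.11) and with robust moderation (0.064). In unfasted mutants Bcl6 was at -0.47 ± 0.40 (adjusted p = 0.56). Tpmt, thiopurine methyltransferase, was lower in mutants of both states with the groups apart, at -0.66 ± 0.18 (adjusted p = 0.033) unfasted and -0.68 ± 0.18 (adjusted p = 0.020) fasted, calls lost without any 1 of 6 arrays unfasted (up to 0.11) and 4 arrays fasted (up to 0.061). Of 14 measured regulators 1 rose in unfasted mutants, Ahr, the receptor of dioxins and other aromatic compounds (0.65 ± 0.10, adjusted p = 0.0016), which is named here after its value was seen. The factors NRF2 (Nfe2l2), PXR (Nr1i2) and CAR (Nr1i3) were not called in either genotype comparison.

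By fasting, the list held 1 rise and 2 falls in mutants, where 2.33% of all genes were called higher and 1.02% lower. It held 1 rise and 1 fall in heterozygotes, where 0.732% were called higher and 0.838% lower, and none in the interaction. Both PAPS synthases appeared, and Papss1 was also lower in unfasted mutants against unfasted heterozygotes (-0.23 ± 0.06, adjusted p = 0.019, lost without heterozygous unfasted replicate 3 or 4, up to 0.069). With just the 8 arrays compared that call of Papss1 was lost too (0.064). Papss2 read 11.06, 10.81, 10.97 and 11.10 in fasted mutants, against 11.48, 11.75, 11.61 and 11.76 in unfasted mutants, and it fell with the groups apart (-0.67 ± 0.15, adjusted p = 0.025, lost without any 1 of 4 arrays, up to 0.079). Papss1 read 7.18, 7.13, 7.11 and 7.13 in fasted heterozygotes, against 7.40, 7.46, 7.54 and 7.57 in unfasted heterozygotes, and it fell with the groups apart (-0.36 ± 0.06, adjusted p = 0.0064). Gsr, which regenerates glutathione, rose in fasted mutants (0.33 ± 0.07, adjusted p = 0.020, lost without mutant fasted replicate 2 or mutant unfasted replicate 4, up to 0.066). Gclm, a subunit of the first enzyme of glutathione synthesis, fell in fasted mutants (-0.26 ± 0.06, adjusted p = 0.027, lost without any 1 of 4 arrays, up to 0.079). Nr1i3, the receptor CAR, rose in fasted heterozygotes (0.75 ± 0.18, adjusted p = 0.048, lost without any 1 of 13 arrays, up to 0.13). The Nr1i3 call was also lost under 4 alternative settings (adjusted p up to 0.067). With just the 8 arrays compared the calls of Gsr and Gclm were lost too (adjusted p = 0.15 and 0.13).

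Markers of other liver cells moved with genotype as well. More genes were called in the fasted comparison: 8.62% of all genes were higher and 5.01% lower, against 4.25% and 3.69% unfasted. Of 9 macrophage markers 8 were higher in fasted mutants and none in unfasted mutants. Their sum, made as for the acinar markers, ran from 13.05 to 13.46 in fasted mutants and 12.44 to 13.18 in unfasted mutants. It ran from 12.18 to 12.75 in fasted heterozygotes and 12.16 to 12.77 in unfasted heterozygotes. Of 7 endothelial markers 4 were higher in unfasted mutants and 5 in fasted mutants, and of 7 stellate and fibroblast markers 5 were higher in unfasted mutants and 2 in fasted mutants. The endothelial sums ran from 12.99 to 13.22 in fasted mutants, 12.87 to 13.27 in unfasted mutants, 12.50 to 12.75 in fasted heterozygotes and 12.47 to 12.85 in unfasted heterozygotes. The stellate and fibroblast sums ran from 12.79 to 13.06 in fasted mutants, 12.92 to 13.17 in unfasted mutants, 12.59 to 12.75 in fasted heterozygotes and 12.58 to 12.79 in unfasted heterozygotes. None of 5 measured cholangiocyte markers was higher in mutants of either state, and 1 was lower in fasted mutants. The arrays have no detection calls, so no marker can be called absent. The part of these markers in the differences of the conjugation enzymes was not tested.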

How the data were processed

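Liver RNA of 16 mice was hybridised to 1 array each, from 300 ng of total RNA per the labels' protocols. Per the submitters' processing notes, the authors used Affymetrix Expression Console and RMA, which removes background, equalizes the distributions of the arrays and combines the probes of each probe set. The deposited values were taken to be log2 from their range of 3.80 to 14.33. Array medians were 7.33 to 7.40, correlations within a group 0.985 to 0.996, and no arrays were identical. The sources used here name no software versions and no genome build, and the table has no detection calls. Precision was judged from the spread between arrays and the number of arrays.

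Of 35556 probe sets, 21789 had 1 symbol in the platform annotation, 1621 had several and 12146 were not listed. Symbols were updated through a RefSeq table (GRCm38.p6), with 21698 matched. The 12 probe sets shared between members of these families are described without a test. limma 3.58.1 in R 4.3.3 fitted 1 mean per group to all 16 arrays and 19938 genes, with variances moderated along an intensity trend. Tests were two-sided, adjusted over all genes by Benjamini-Hochberg, and called at an adjusted p under 0.05. No filter on dim genes was applied. The code was tested on simulated data. The labels and the design text describe separate mice per group and give no batch.

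The members, the partner and marker lists, the naming rule and the alternatives were chosen with earlier results of these data known. Every member may be named, and values on each array are given for members called in at least 1 of 5 contrasts. Up to 4 called partners with the largest change are named per contrast, and any other is said to be named after its value was seen. Replicate numbers were not treated as pairs, since 9 of 24 same-numbered pairs correlated above 0.1, between -0.12 and 0.252. Promoter windows were searched over the 250 bases before the start. Alternatives changed 1 choice at a time: blocking on the replicate number, using just the 8 arrays in question, weighting arrays, centring arrays on their medians, quantile-normalizing again, moderating variances robustly or with no trend, averaging a gene's probe sets or taking the dimmest, testing the brighter genes alone, tightening the threshold, and dropping each array.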

Additional observations from a re-analysis of the deposited data

Results flagged for a closer look

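In each member and group of 4 arrays, the highest or lowest array was compared with the nearest of the others by Dixon's test. It set an array apart in 10 of 180 such groups, or 5.6%, and chance alone gives about 1 in 20. Among glutathione S-transferases, Gstk1 read 12.46 in heterozygous fasted replicate 3, with its other arrays at 12.56 to 12.58, and 12.24 in heterozygous unfasted replicate 2, with the others at 12.56 to 12.62. Gstm1 read 12.69 in mutant unfasted replicate 1, the array with acinar transcripts, with the others at 12.65. Gstm3 read 11.63 in heterozygous unfasted replicate 4, with the others at 11.28 to 11.34. Gstm7 read 11.10 in mutant unfasted replicate 4, with the others at 10.26 to 10.40. Gstt2 read 9.83 in mutant fasted replicate 4, with the others at 10.21 to 10.29.

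Among sulfotransferases, Sult1c1 read 5.04 in mutant fasted replicate 2, with the others at 5.11 to 5.13, and 5.37 in mutant unfasted replicate 3, with the others at 5.18 to 5.20. Sult1d1 read 11.88 in heterozygous fasted replicate 3, with the others at 11.56 to 11.57. Ugt2b37, a glucuronosyltransferase, read 7.20 in mutant fasted replicate 2, with the others at 7.37 to 7.39.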

How the results depend on the processing

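Counts of called members were recomputed under 12 alternatives and without each array. In the order unfasted genotype comparison, fasted genotype comparison, fasting in mutants, fasting in heterozygotes and interaction, the counts were 13, 16, 4, 6 and 0. At an adjusted p under 0.01 the first 4 were 5, 6, 1 and 1, and with a minimum of 2-fold they were 2, 2, 1 and 0. The replicate block gave 10 for fasting in heterozygotes, against 6, and 14, 15, 5 and 0 for the others; the numbers do not pair the mice, and 6 of 16 arrays correlated best with their own number. Fitting only the 8 arrays compared gave 1 for fasting in mutants, and array weights gave 2 there and 13 for fasting in heterozygotes. A second quantile normalization gave 1 interaction call, Sult1d1. Leaving out 1 array gave 8 to 14, 9 to 16, 1 to 5, 3 to 7 and 0 to 1. The unfasted count was 8 without heterozygous unfasted replicate 3 or 4. The fasted count was 9 without mutant fasted replicate 2 or heterozygous fasted replicate 4, and 10 without mutant fasted replicate 1 or heterozygous fasted replicate 3. Fasting in mutants gave 1 call without mutant fasted replicate 2 or mutant unfasted replicate 4, and 2 without mutant fasted replicate 1 or 3. Fasting in heterozygotes gave 3 without heterozygous fasted replicate 1, and the interaction 1 without mutant fasted replicate 4. The cause of these shifts was not tested. No difference of a single gene changed sign while called: of 6185 recomputed values 5921 stayed on their side of the threshold, 202 no longer passed and 62 came to pass.

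Over all genes the unfasted genotype count of 1584 was 764 with only the 8 arrays compared, 1033 without mutant unfasted replicate 3, 698 without heterozygous unfasted replicate 3 and 815 without replicate 4. The fasted count of 2716 was 1575 without mutant fasted replicate 2 and 1713 without heterozygous fasted replicate 4. For fasting in mutants, 667 became 33 with only the 8 arrays compared, 1941 without mutant unfasted replicate 1, and 224, 371, 287 and 342 without mutant fasted replicates 2 and 3 and mutant unfasted replicates 2 and 4. For fasting in heterozygotes, 313 became 568 with only the 8 arrays compared, 1029 with array weights, and 155 to 180 without heterozygous fasted replicates 1 to 4 or heterozygous unfasted replicates 3 or 4. Members near the lower end of the scale may show changes that are understated, since signal over background is not given.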

Other observations

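Probe sets shared by several sulfotransferases gave 1 array apart. The probe set annotated to Sult2a1 and Sult2a2, enzymes that sulfate bile acids and steroids and are known to be higher in female mouse liver, read 6.91 in mutant fasted replicate 1. Its other fasted mutant arrays read 4.77, 4.92 and 4.88, the unfasted mutant arrays 4.84, 4.86, 5.49 and 5.15, and all heterozygous arrays lay between 4.87 and 5.06. A second probe set, annotated to Sult2a1, Sult2a2, Sult2a4 and Sult2a5, read 5.64 on the same array and 5.32 in mutant unfasted replicate 3. The probe sets shared by Gstp1 and Gstp2, 2 in number, differed by -0.38 and -0.35 in unfasted mutants against unfasted heterozygotes, and their groups overlapped. These values were seen in single mice or in probe sets with several symbols and were not tested.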
